A study of Mus musculus with 235 samples.

Results

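The cytosolic ribosomal protein genes encode the protein components of the ribosome of the cytoplasm. They were taken from a count table of 27998 genes by symbol, as every Rps, Rpl or Rplp gene other than pseudogene entries and the Rps6 kinases, with a mean of at least 20 CPM (counts scaled to a library total of 1000000) over all libraries. Of 86 matching symbols 73 passed, namely 31 of the small subunit, 39 of the large subunit and the 3 stalk genes Rplp0, Rplp1 and Rplp2. The rule used a gene's mean over all libraries and no difference between groups. Just inside the threshold were Rpl24 at 20.7, Rpl35 at 21.4 and Rpl36 at 22.5 CPM, and just outside were Rpl36al at 19.0, Rpl18 at 18.7 and Rpl10 at 17.8 CPM. Since the choice is by symbol, it also holds Rps19bp1, whose product binds a ribosomal protein and is not one itself, and the paralogs Rpl22l1, Rps27l and Rpl7l1. All 73 genes passed the low-count filter of every fit described here.

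Messenger RNA was measured in 235 libraries from 30 male C57Bl/6 mice aged 3 months, of which 15 received saline as vehicle and 15 received dexamethasone, a synthetic glucocorticoid, at 10 mg/kg. Both were injected intraperitoneally 4 h before the end of the experiment, and the animals of both arms were perfused. Tissue was punched from 8 places of each brain, labelled PFC, AMY, PVN, CER, dCA1, vCA1, dDG and vDG and named so here, and each of the 16 groups of region and arm held 13 to 15 libraries, each from a different animal. A punch mixes neurons, glia and vessels, so that fewer cells of a type and less RNA per cell cannot be told apart.

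Ribosomal proteins are made in step with ribosomal RNA, and each is needed in a fixed number per ribosome, with the stalk proteins Rplp1 and Rplp2 as the exception of more than a single copy. Their messengers begin with a run of pyrimidines, the terminal oligopyrimidine tract, through which the mTOR pathway and the RNA-binding protein Larp1 control their translation. In muscle, glucocorticoids are known to raise the mTOR inhibitor Ddit4. In neurons, ribosome content is high and is tied to cell size and protein synthesis at synapses.

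A library held 268538 to 1451422 counts (median 742957), and single members held between 3651 (Rpl24) and 140528 (Rplp1) counts over all libraries. Libraries came from 4 plates and 5 punching dates, which both arms and all regions shared. RNA integrity (RIN) was highest in PFC, with medians of 7.7 and 7.8 in vehicle and dexamethasone animals, and other group medians lay between 5.9 and 6.9. The labels were checked with marker genes. The summed level of 7 genes of dentate granule cells in vehicle libraries ran from 557 to 1558 CPM in dCA1 (median 1195) and from 175 to 1904 CPM in dDG (median 939), against a median of 208 CPM in vCA1. In dexamethasone libraries the medians were 853 CPM in dCA1, 1130 CPM in dDG and 320 CPM in vCA1. Gabra6, a gene of cerebellar granule cells that was looked up after values were seen, gave 11 counts in all CER libraries together, against 419 in the vehicle and 334 in the dexamethasone libraries of vDG, and 187 and 9 in those of vCA1. For the dentate genes the lowest dDG libraries, at 175 CPM in vehicle and 123 CPM in dexamethasone animals, lay within the range of AMY. Results for dCA1, dDG, CER, vDG and vCA1 are therefore results for the libraries labelled so. The other regional contrasts were also computed without dCA1 and CER, but not without dDG, vDG and vCA1.

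RefSeq promoter windows (GRCm38.p6), which reach from 250 bases before to 50 after each gene's annotated start, matched 55 of the 73 members through 65 windows. The start meant here is that of these windows. Coordinates of whole genes printed further below come from the count table, whose starts can differ, as for Rps2. The run is shown for 10 of the genes that recur in the results below, with runs at the annotated start and away from it. Each line gives 30 bases, 5′ to 3′ on the gene's strand, with the longest pyrimidine run beginning with C near the start in capitals.
Rplp2: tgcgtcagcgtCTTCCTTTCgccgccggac
Rps12: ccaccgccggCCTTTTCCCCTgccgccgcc
Rps18: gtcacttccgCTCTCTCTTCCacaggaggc
Rpl13a: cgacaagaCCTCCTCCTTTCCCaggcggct
Rpl22l1: gcaagcccgttCTCTTCCCacggctgcagc
Rps2: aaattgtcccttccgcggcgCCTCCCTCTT
Rps16: aattcacacgtCCCCTCTCaggcttcgacg
Rpl12: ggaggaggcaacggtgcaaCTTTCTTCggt
Rpl22: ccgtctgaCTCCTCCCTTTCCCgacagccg
Rplp0: ggaccgcctggttCTCCTataaaaggcaca
These windows lie at chr7:141447636-141447665 (plus strand), chr10:23787182-23787211 (minus), chr17:33955648-33955677 (minus), chr7:45128722-45128751 (minus), chr3:28805500-28805529 (plus), chr17:24720083-24720112 (plus), chr7:28350632-28350661 (plus), chr2:32961732-32961761 (plus), chr4:152325679-152325708 (plus) and chr5:115559467-115559496 (plus). The run of Rplp0 is 5 bases long and those of the other 9 genes at least 8. Counted from the annotated start as base 1, with bases before it negative, the runs of Rplp2, Rps12, Rps18, Rpl13a and Rpl22l1 begin between -4 and 9. Those of Rps16 and Rpl22 begin before the start, at -46 and -39, and those of Rpl12 and Rps2 after it, at 40 and 41, so these 4 are not at the annotated 5′ end. A run of at least 8 pyrimidines beginning with C, on the gene's strand within 50 bases of the annotated start, was found in 51 of the 65 member windows (78.5%) and in 28.8% of 32851 windows of all genes. The letters CTTCCG, the core of an ETS factor motif that can overlap such a run, were found on either strand of 64.6% of the member windows and 16.9% of all windows. TATAAA, on either strand, was in 10.8% and 13.6%. The pair GAACA and TGTTC with any 3 bases between them, a form of the glucocorticoid receptor's binding motif, was in 0 of the 65 member windows and in 0.0578% of all windows. These letter matches describe the windows and are not measured sites of binding.

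Together the 73 genes took 1.08% of all counts. The lowest share was 0.639% in vehicle replicate 1 of dDG, whose RIN was 4.1, and the highest was 1.48% in vehicle replicate 14 of dCA1. Vehicle medians ran from 0.943% in vDG and 0.971% in CER to 1.18% in PFC and 1.19% in AMY. In dexamethasone animals the medians ran from 0.994% in dDG, 0.995% in vDG and 0.996% in CER to 1.16% in dCA1 and 1.18% in AMY, with PFC at 1.10%. The ranges of the arms overlapped in every region.

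**Figure D1:**
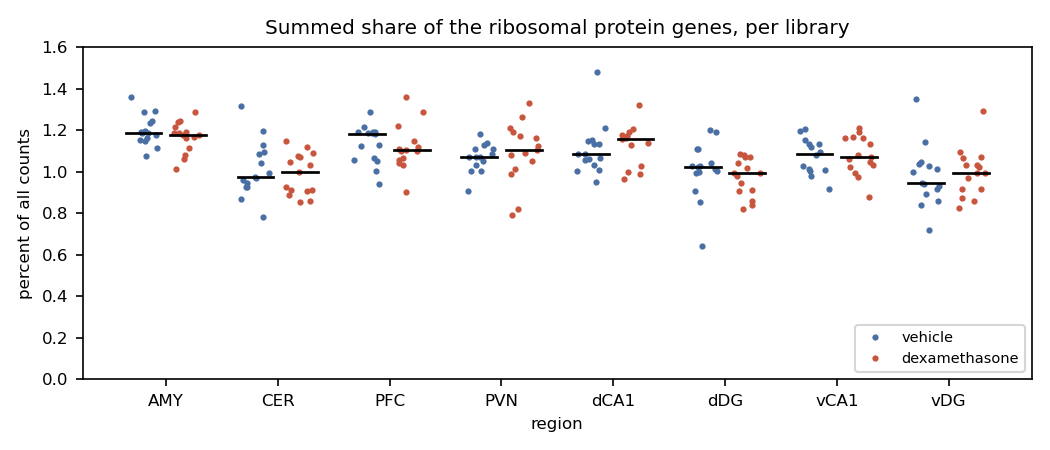
Share of all counts taken by the 73 ribosomal protein genes together (vertical axis, percent) in every library (points), by region (horizontal axis) and arm (blue vehicle, red dexamethasone), with the group median as a black line. Points of the arms overlap in each region, and the medians are highest in AMY and PFC among vehicle groups and lowest in vDG.

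Counts were made from tags at the 3' end of transcripts, 1 tag per transcript by the design of the assay, so CPM of different genes do not scale with gene length. Many ribosomal protein genes have near-identical processed pseudogenes, and how reads matching several places were treated is not given in the sources used here, so the order of levels between genes is uncertain. As counted, Rplp1 was first in the vehicle libraries of all 8 regions (mean over regions 811 CPM) and Rps21 second (564 CPM). Rps6, the small subunit protein phosphorylated downstream of mTOR, was counted at 7.37 CPM and Rpl10a at 3.31 CPM, both below the threshold. The order of members was similar across regions, with Spearman's rho between 0.9748 and 0.996 over the 28 pairs of regions, all of which share genes, mappability and animals.

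Between regions a member's mean level differed little. The highest vehicle region mean was 1.33 times the lowest for the median member, from 1.16 to 1.93 times over members, and 63 of 73 stayed under 1.5 times. Among the 10 others were Rps2 (1.93), Rps16 (1.81), Rpl12 (1.71), Rplp0 (1.67), Rps14 (1.58), Rpl9 (1.56), Rps18 (1.54), Rpl5 (1.53) and Rplp1 (1.51). The Rplp1 ratio includes vehicle replicate 4 of dCA1 at 2017 CPM, a library the authors omitted from their variance-stabilised tables, where the median of that group was 888 CPM. Within vehicle groups the coefficient of variation was 18.0% for the median member, lowest for Rps26 (12.0%) and highest for Rps16 (33.0%).

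The first comparison asked whether ribosomal protein messengers differed 4 h after dexamethasone. None of the 73 passed an edgeR adjusted p of 0.05 in any region, in libraries where other genes did. The share of all tested genes called was 6.18% in CER, 6.14% in PFC, 5.67% in PVN and 5.61% in AMY, and it was 5.46% in vCA1, 4.72% in dCA1, 3.93% in vDG and 3.65% in dDG. Over the 584 tests of a member in a region, 14 (2.40%) had an unadjusted p under 0.05, 8 of them higher and 6 lower after dexamethasone, and DESeq2 also called 0 members in each of the 8 regions. The median log2 change of the members was -0.06 in CER, -0.05 in dDG, -0.04 in AMY and -0.01 in PFC, and 0.0015 in dCA1, 0.0061 in vCA1 and 0.04 in both PVN and vDG, against medians between -0.02 and -0.0032 over all genes. Over the settings run, the median of the members kept its sign in CER, AMY and PVN only. It ran from -0.07 to 0.0053 in dDG and from -0.03 to 0.05 in vDG, and also took both signs in PFC, dCA1 and vCA1.

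The precision bounds the size of change that could have gone unseen. Of the 584 intervals (95%, from the fitted standard errors) 580 lay wholly within a 1.5-fold change in either direction. For 70 of the 73 members all 8 intervals lay within 1.5-fold. The exceptions were Rps4x in AMY (interval -0.60 to 0.02 on the log2 scale), Rpl35 in CER (-0.78 to 0.15) and Rps16 in PFC (-0.71 to -0.14) and PVN (0.05 to 0.68). No member had the same sign in all 8 regions.

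**Figure D2:**
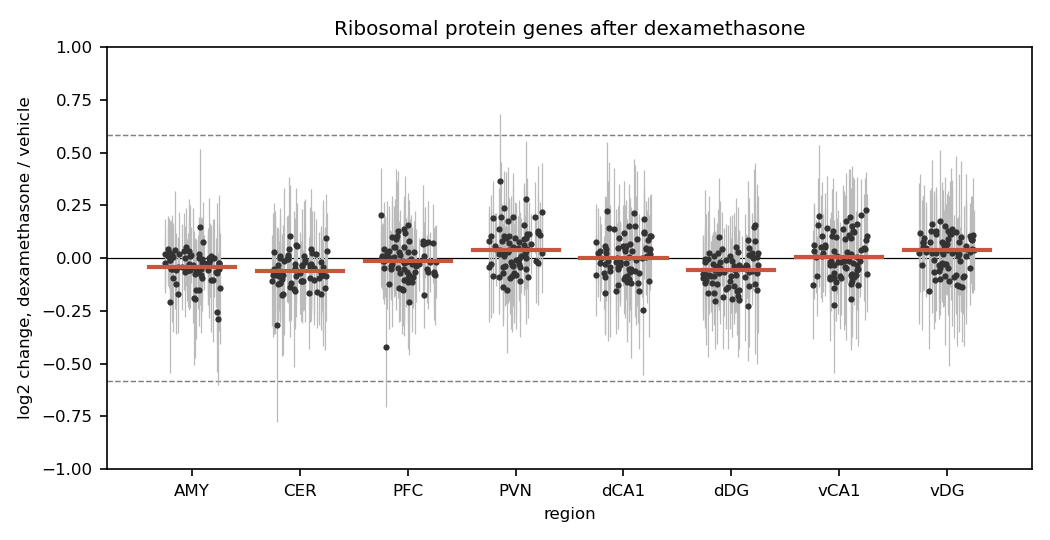
Log2 change after dexamethasone (vertical axis) of each of the 73 members (points, with 95% intervals as grey lines) in the 8 regions (horizontal axis); red bars are medians over members and dashed lines mark a 1.5-fold change. All medians lie between -0.06 and 0.04, and 4 of 584 intervals cross a dashed line.

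Among the stalk genes, Rplp0, which anchors the stalk to the large subunit, was at 42.5 to 78.5 CPM (median 66.0) in vehicle and 53.1 to 99.5 CPM (median 70.8) in dexamethasone libraries of PVN. The groups overlapped, and the log2 change was 0.24 ± 0.09 (SE, n = 14 and 15), with an unadjusted p of 0.0105 and an edgeR adjusted p of 0.131. In PVN Rplp2 was at 0.19 ± 0.09 (edgeR adjusted p = 0.271), and Rplp1, its dimer partner, at 0.05 ± 0.08. In the other 7 regions the log2 changes of the 3 genes lay between -0.16 and 0.15.

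Rps16, a small subunit protein of the head of the subunit, had the smallest adjusted p of all. In PFC it was at 20.2 to 82.6 CPM (median 41.4) in vehicle and 22.5 to 44.8 CPM (median 31.3) in dexamethasone libraries, and in PVN at 11.1 to 36.3 CPM (median 25.4) and 19.6 to 45.3 CPM (median 26.5). The arms overlapped in both regions, with the highest PFC libraries among the vehicle animals. The log2 change was -0.42 ± 0.14 in PFC (SE, n = 15 and 14; edgeR adjusted p = 0.0687) and 0.36 ± 0.16 in PVN (n = 14 and 15; edgeR adjusted p = 0.237). Rps16 was also the member with the widest spread within groups.

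Other members with an unadjusted p under 0.05 included the small subunit genes Rps13 in PVN (0.19), Rps15a in PFC (0.16), Rps15 in dDG (-0.19) and Rps25 in vCA1 (0.23), all as log2 changes. The large subunit genes were Rpl8 in dDG (-0.20), Rpl7 in vCA1 (0.21), Rpl36 in PVN (0.28) and Rpl13a in CER (-0.17) and dDG (-0.16). Their edgeR adjusted p ran from 0.155 to 0.351. Rps16 and Rpl13a were the 2 members on this list in more than 1 region. The only call under another setting was Rps2 in PVN, at 0.29 with an edgeR adjusted p of 0.0386 once 8 surrogate variables were added.

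Rpl13a and Rps18 are often used as reference genes for quantitative PCR. The log2 difference of Rpl13a, also known for silencing inflammatory messengers outside the ribosome, lay between -0.17 ± 0.08 (CER) and 0.11 ± 0.08 (PVN), and that of Rps18 between -0.14 ± 0.14 (CER) and 0.22 ± 0.12 (PVN) (± SE). Rpl3, part of the peptidyl transferase centre, stayed between -0.04 and 0.08. Rps27a, which is made as a fusion with ubiquitin, stayed between -0.16 and 0.13. None of these passed the edgeR test.

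Whether the response differed among regions was tested as an interaction over all 16 groups. The fit had no animal term, although each animal gave libraries of several regions. By edgeR, 0 of 73 members passed, where 1.18% of 11053 genes did, and 1 member had an unadjusted p under 0.05. It was Rplp0 (p = 0.0435, edgeR adjusted p = 0.662), followed by Rps25 (p = 0.0660) and Rps16 (p = 0.0853).

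Other genes of the ribosome pathway were described beside these. Of 13 listed genes of mTOR control 11 were tested, and 2 rose in each of the 8 regions by the edgeR test, Ddit4 by 0.96 to 1.72 and Sesn1 by 0.34 to 0.82 on the log2 scale, and none fell. Ddit4 and Sesn1 encode inhibitors upstream of mTOR complex 1, which controls ribosomal protein messengers mainly in translation, a step that RNA counts do not measure. Among 20 tested translation factors and related messengers, Eef1d, a subunit of elongation factor 1, rose in 3 regions (0.34 to 0.58). Among 23 to 26 genes of ribosome assembly, Polr1c, shared by RNA polymerases I and III, rose in PVN (0.36). Mrpl41 rose in 2 regions, AMY and vCA1 (0.38 to 0.40), of 65 to 69 mitochondrial ribosomal protein genes tested, and no nuclear or mitochondrial gene of oxidative phosphorylation passed in any region. Cell type markers that fell in all 8 regions were Cx3cr1 and P2ry12 of microglia (2 of 6 or 7 tested) and Flt1 and Slco1a4 of endothelium (2 of 4 tested). None of the 9 genes on the neuron list passed. Of other lists, the dentate granule cell gene Prox1 fell in AMY, CER and PVN (-1.04 to -0.36) and Plk5 in dCA1 (-0.82), while Dsp (1.95) and Npnt (1.22) rose in vCA1. Ttr of choroid plexus fell in vCA1 (-2.27), Mog of oligodendrocytes in AMY (-0.58) and Aqp4 of astrocytes in dCA1 (-0.43), where the astrocyte gene Aldh1l1 rose (0.72). Whether shifts in cell makeup touched the members was not tested.

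The second comparison asked how the members differed between regions. Each region was set against the mean of the other 7 within an arm, with the animal as a block. The 2 arms are different animals, so each contrast was measured in 2 separate sets of mice. By edgeR, 57 of 73 members (78.1%) differed among regions in vehicle animals, where 73.3% of all genes did, and 55 (75.3%) in dexamethasone animals, where 75.1% did. A share this close to the background is no result about ribosomal protein genes. The median over all genes lay between -0.02 and 0.01 in the 16 contrasts.

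In AMY, 25 of 73 members were higher and 0 lower in vehicle animals, where 25.2% of all genes were called (13.1% higher, 12.1% lower). In dexamethasone animals 16 were higher and 0 lower, where 28.4% were called (14.6% and 13.8%), and 15 were higher in both. Without the libraries the authors omitted, 26 were higher in AMY of dexamethasone animals. In PFC 20 were higher and 2 lower (39.5% called; 19.6% and 19.9%), and 18 and 0 in dexamethasone animals (36.0% called; 18.5% and 17.5%), with 15 higher in both. In dCA1 13 were higher and 0 lower (39.1% called; 20.1% and 19.0%), and 15 and 0 in dexamethasone animals (35.0% called; 18.3% and 16.7%), with 8 in both, and the vehicle count was 8 with upper-quartile scaling. Higher calls in vehicle animals made up 34.2% of members in AMY, 27.4% in PFC and 17.8% in dCA1. The dCA1 share was below the 20.1% of all genes called higher there. In dexamethasone animals it was 20.5%, against 18.3% of all genes. The medians in vehicle animals were 0.14, 0.09 and 0.09 on the log2 scale in AMY, PFC and dCA1. PFC also had the highest RIN, and with RIN as a covariate its vehicle split became 6 higher and 5 lower, with a median of -0.0078, and its dexamethasone split 6 and 0. Over all genes the calls in PFC went from 4131 to 3380 of 10451 in vehicle and from 3790 to 3089 of 10531 in dexamethasone animals when RIN was added.

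In vDG, dDG and CER more members were lower than higher. In vehicle animals lower calls made up 27.4% of members in vDG, 12.3% in dDG and 21.9% in CER. Those of dDG and CER were not above the shares of all genes called lower (15.5% and 23.9%). In dexamethasone animals the shares of members were 19.2%, 28.8% and 32.9%, each above that of all genes. In vDG 0 were higher and 20 lower (10.6% called; 6.82% and 3.80%), and 0 and 14 in dexamethasone animals (15.0% called; 9.49% and 5.54%), with 8 lower in both. In dDG 0 were higher and 9 lower (32.8% called; 17.3% and 15.5%), and 0 and 21 in dexamethasone animals (38.7% called; 20.3% and 18.4%), with 7 lower in both. The dDG vehicle split was 2 and 13 without the dCA1 and CER libraries, 1 and 13 with date of punching and plate, and 1 and 3 with RIN. In CER 1 was higher and 16 lower (47.9% called; 24.0% and 23.9%), and 0 and 24 in dexamethasone animals (53.2% called; 26.0% and 27.2%), with 14 lower in both. With upper-quartile scaling the CER split became 3 and 13 in vehicle and 2 and 16 in dexamethasone animals. Medians were -0.17 in vDG, -0.09 in dDG and -0.07 in CER in vehicle animals.

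PVN and vCA1 had no such balance in both arms. In vehicle animals 19.2% of members were called lower in PVN and 4.11% higher in vCA1, neither above the share of all genes. In PVN 3 were higher and 14 lower in vehicle animals (41.1% called; 20.2% and 20.9%), but 6 and 6 in dexamethasone animals (42.7% called; 20.8% and 22.0%), with 2 higher and 5 lower in both. With upper-quartile scaling the PVN split was 6 and 8 in vehicle and 9 and 5 in dexamethasone animals, and with RIN as a covariate 6 and 7 in vehicle animals. In vCA1 3 were higher and 1 lower (19.7% called; 12.3% and 7.36%), and 4 and 0 in dexamethasone animals (21.8% called; 13.4% and 8.44%), with 2 higher in both. The vehicle split in vCA1 was 1 and 2 with upper-quartile scaling, and 2 and 2 with relative log expression scaling. Without vCA1 dexamethasone replicates 4, 11 and 15 and the other libraries that the authors' variance-stabilised tables omit, 0 members passed in vCA1 of dexamethasone animals. No member was called in opposite directions in the 2 arms.

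**Figure D3:**
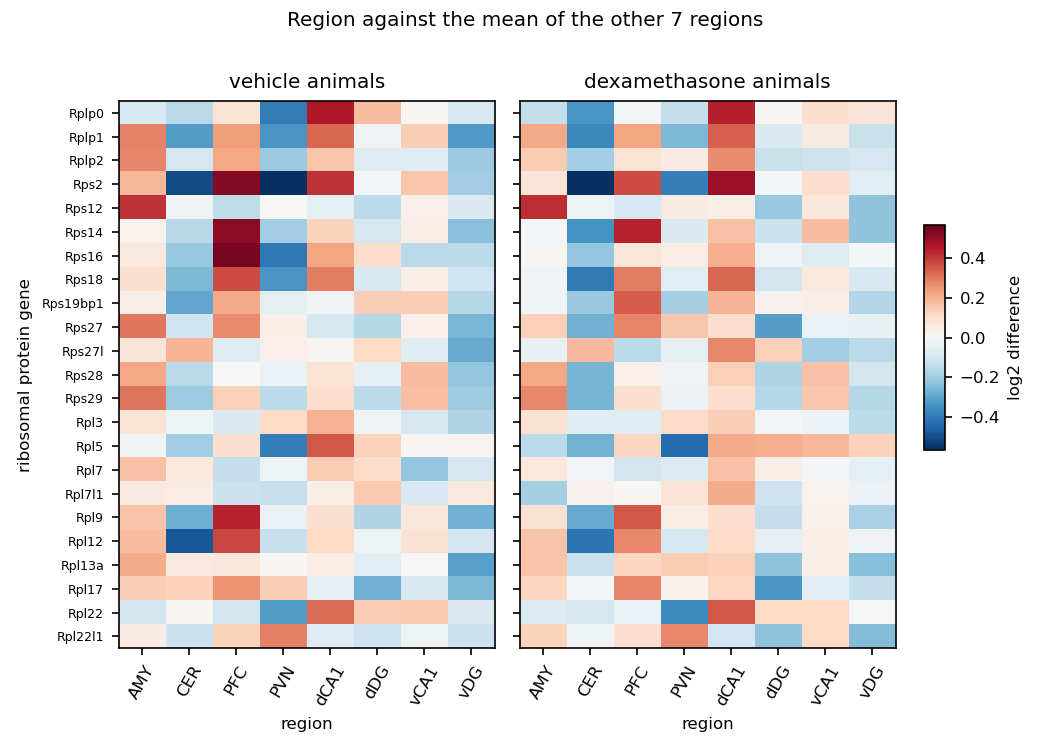
Log2 difference between a region and the mean of the other 7 (colour; red higher, blue lower) for members named in the text (rows: stalk, small subunit, large subunit) and region (columns), in vehicle animals (left) and dexamethasone animals (right). The darkest blue cells are Rps2 in PVN (-0.57, left) and in CER (-0.57, right), and Rplp1 is red in AMY, PFC and dCA1 and blue in CER and PVN in both panels.

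Cell makeup and RNA quality differed between these regions too. All 7 oligodendrocyte markers were higher in AMY and in CER and lower in PFC and dCA1 in vehicle animals, with summed medians of 9548 CPM in AMY, 14421 in CER, 2108 in PFC and 3191 in dCA1. These markers and the members thus had the same direction on balance in AMY and opposite directions in CER and dCA1, and in PFC where RIN was not in the fit. Microglial markers were higher in AMY (7 of 7; summed level 430 to 810 CPM) and lower in CER (6 of 7; 254 to 525 CPM) and PVN (7 of 7; 251 to 346 CPM). None of these summed levels was near 0 in any library, and the part of cell makeup in the members' differences was not tested. With RIN as a covariate the dDG split in dexamethasone animals was 0 and 22. The AMY counts with RIN were 32 and 19 higher, and those of vDG 19 and 14 lower, in vehicle and dexamethasone animals.

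The stalk genes differed between several regions. Rplp0 (ENSMUSG00000067274, chr5:115559467-115563727) was at 83.9 to 144 CPM (median 107) in dCA1 vehicle libraries, where the medians of the other regions lay between 66.0 and 85.9 CPM. All dCA1 vehicle libraries were above all PVN vehicle libraries (42.5 to 78.5 CPM). The log2 difference of dCA1 was 0.46 ± 0.07 in vehicle (SE; higher in 14 of 15 animals; edgeR adjusted p = 7.12e-08) and 0.44 ± 0.07 in dexamethasone animals (11 of 13; edgeR adjusted p = 2.14e-08). In PVN it was -0.40 ± 0.08 in vehicle animals (lower in 14 of 14; edgeR adjusted p = 1.39e-05) and -0.14 ± 0.07 in dexamethasone animals (edgeR adjusted p = 0.0981), where its change with dexamethasone was described above. In CER it was -0.15 ± 0.08 in vehicle (edgeR adjusted p = 0.0926) and -0.33 ± 0.07 in dexamethasone animals (edgeR adjusted p = 2.59e-05).

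Rplp1 was at 535 to 772 CPM (median 654) in PVN and 710 to 2017 CPM (median 888) in dCA1 vehicle libraries, the highest being replicate 4, and the next highest was at 1181 CPM. It was higher in dCA1 by 0.33 and 0.34, in AMY by 0.28 and 0.21 and in PFC by 0.24 and 0.22 in vehicle and dexamethasone animals. It was lower in PVN (-0.33 and -0.26) and CER (-0.32 and -0.37), and all of these passed the edgeR test. Without the libraries the authors omitted, among them dCA1 vehicle replicate 4, the dCA1 difference was 0.21 in vehicle (edgeR adjusted p = 0.0144) and 0.34 in dexamethasone animals. With RIN as a covariate PFC did not pass in dexamethasone animals (edgeR adjusted p = 0.0726). In vDG it passed in vehicle animals (-0.32), and was at -0.13 in dexamethasone animals (edgeR adjusted p = 0.258). Rplp2 was higher in AMY (0.28) and lower in PVN (-0.21) in vehicle animals, with edgeR adjusted p of 0.155 and 0.662 for the same contrasts in dexamethasone animals. The PVN contrast did not pass in vehicle animals with upper-quartile scaling (0.0821) or with RIN (0.0549; edgeR adjusted p).

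Of the small subunit genes, Rps2 (ENSMUSG00000044533, chr17:24718116-24721929), which lines the entry channel of the messenger, had the widest regional range of all members. In vehicle libraries it was at 93.8 to 206 CPM (median 133) in PFC and 93.7 to 193 CPM (median 123) in dCA1, but 52.1 to 96.1 CPM (median 73.5) in PVN and 34.2 to 118 CPM (median 77.7) in CER. PFC and dCA1 overlapped PVN only at their lowest libraries. The log2 differences in vehicle and dexamethasone animals were 0.52 ± 0.09 and 0.37 ± 0.10 in PFC, and 0.41 ± 0.10 and 0.49 ± 0.10 in dCA1. They were -0.57 ± 0.11 and -0.39 ± 0.10 in PVN, and -0.51 ± 0.11 and -0.57 ± 0.10 in CER. The largest edgeR adjusted p of these 8 was 0.000867, and the direction held in at least 11 animals of each contrast.

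Rps14 had its largest difference in PFC and Rps12 in AMY. Rps14, a protein of the subunit's platform, was at 385 to 650 CPM (median 483) in PFC vehicle libraries, above the medians of the other regions (303 to 374 CPM). Its PFC difference was 0.51 ± 0.07 in vehicle (15 of 15 animals; edgeR adjusted p = 3.15e-10) and 0.44 ± 0.07 in dexamethasone animals (14 of 14; edgeR adjusted p = 2.55e-07). Rps12 (ENSMUSG00000061983, chr10:23785211-23787195) was at 166 to 274 CPM (median 244) in AMY vehicle libraries, and the medians elsewhere were 162 to 182 CPM. Its AMY difference was 0.41 ± 0.07 (13 of 15 animals; edgeR adjusted p = 3.89e-07) and 0.42 ± 0.07 (13 of 15; edgeR adjusted p = 1.78e-06). Libraries of both genes overlapped with those of other regions. Rps14 was also lower in vDG in both arms (-0.24 and -0.23), in PVN of vehicle animals (-0.20) and in CER of dexamethasone animals (-0.34), and Rps12 in dDG (-0.21) and vDG (-0.23) of dexamethasone animals, all past the edgeR threshold.

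**Figure D4:**
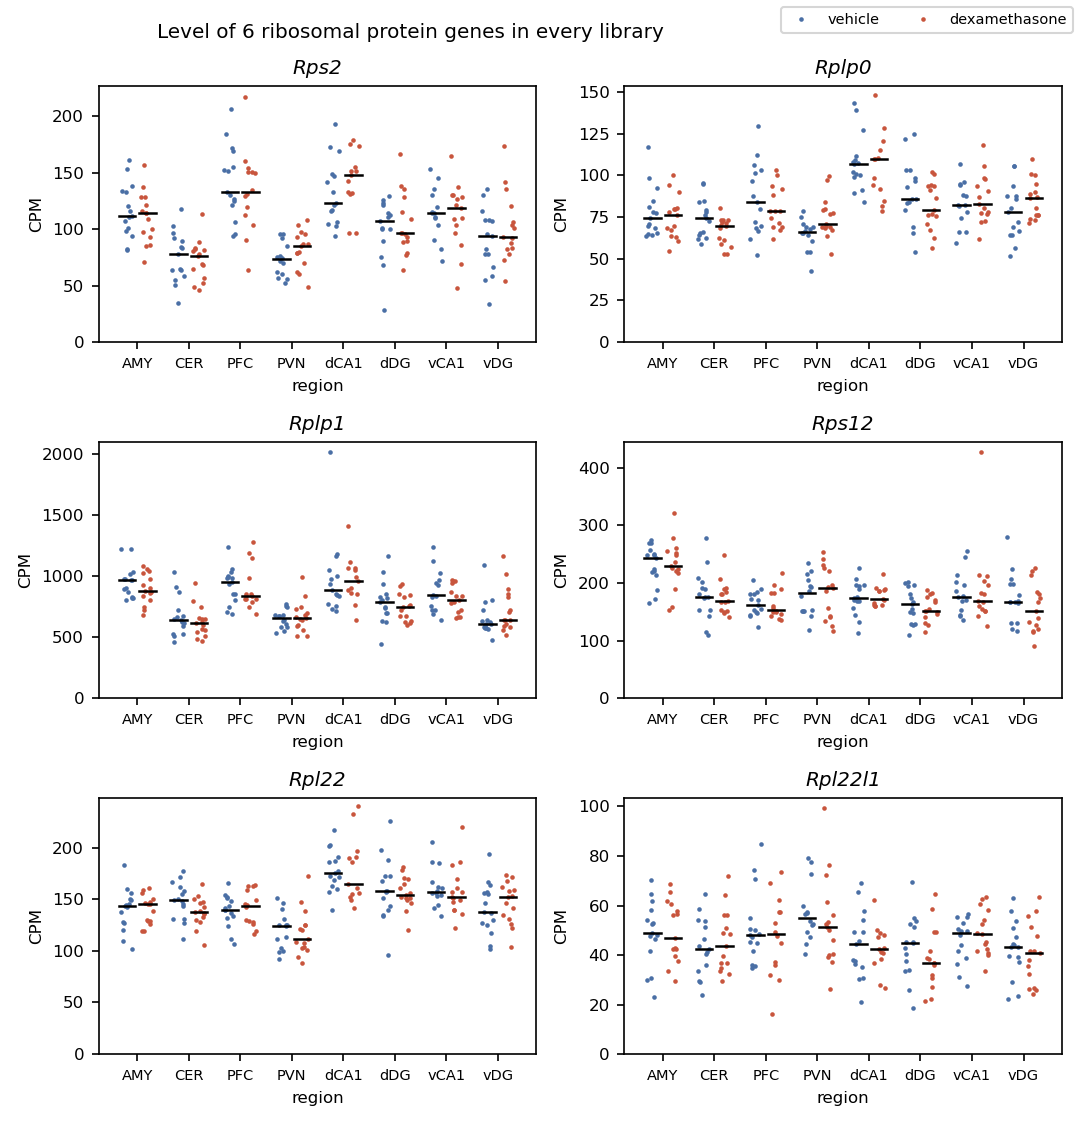
Level in CPM (vertical axes, from 0) of 6 members in every library (points) by region (horizontal axes) and arm (blue vehicle, red dexamethasone), with group medians as black lines. By vehicle median Rps2 is highest in PFC, Rplp1 in AMY, Rplp0 and Rpl22 in dCA1, Rps12 in AMY and Rpl22l1 in PVN, and the arms overlap.

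Rps29 was higher in AMY by 0.30 ± 0.06 in vehicle and 0.27 ± 0.06 in dexamethasone animals. Rps28 and Rps29 were higher in vCA1 by 0.16 to 0.18 in both arms, and neither passed in vehicle animals with upper-quartile scaling or RIN as a covariate, nor in dexamethasone animals with upper-quartile scaling or without the libraries the authors omitted. Rps16, described above, was higher in PFC in vehicle animals (0.54 ± 0.12; edgeR adjusted p = 6.92e-05) and at 0.07 ± 0.13 in dexamethasone animals (edgeR adjusted p = 0.710). In PVN it was lower in vehicle animals (-0.41 ± 0.14; edgeR adjusted p = 0.0114, and 0.0503 with RIN as a covariate) and at 0.04 ± 0.12 in dexamethasone animals (edgeR adjusted p = 0.824). A difference of the Rps16 regional pattern between arms was tested in the interaction above, which it did not pass.

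Of the large subunit genes, Rpl12 (ENSMUSG00000038900, chr2:32961559-32965345), which binds at the base of the stalk beside Rplp0, was at 29.4 to 88.8 CPM (median 55.7) in CER vehicle libraries, below the other medians of 71.5 to 96.0 CPM. Its CER difference was -0.48 ± 0.08 in vehicle (lower in 14 of 15 animals; edgeR adjusted p = 4.42e-08) and -0.42 ± 0.07 in dexamethasone animals (15 of 15; edgeR adjusted p = 6.35e-07). Rpl9 was higher in PFC (0.44 ± 0.07 and 0.35 ± 0.06) and lower in CER (-0.28 ± 0.08 and -0.29 ± 0.07). Rpl5, which carries the 5S ribosomal RNA and can bind Mdm2, was lower in PVN (-0.39 ± 0.10 and -0.44 ± 0.10), at 15.7 to 55.2 CPM in vehicle libraries. Rpl17, near the exit of the peptide tunnel, was lower in dDG (-0.27 ± 0.07 and -0.33 ± 0.09). Rpl13a was lower in vDG (-0.31 ± 0.07 and -0.24 ± 0.06) and higher in AMY (0.21 and 0.16), and all of these passed the edgeR test in both arms.

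Rps18, the other reference gene, was higher in PFC (0.37 and 0.29) and dCA1 (0.29 and 0.33) and lower in CER (-0.26 and -0.40) in both arms by the edgeR test. Its vehicle level ran from 47.0 to 106 CPM in PFC and from 31.1 to 79.1 CPM in CER. In PVN it was lower in vehicle animals (-0.33; edgeR adjusted p = 0.00258) and at -0.07 in dexamethasone animals, which did not pass. The highest vehicle region mean of Rps18 (PFC) was 1.54 times the lowest (PVN), and that of Rpl13a (AMY) 1.38 times the lowest (vDG).

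The paralogs Rpl22 and Rpl22l1 differed in opposite directions in PVN. Rpl22 is a large subunit protein outside the catalytic core, and it is known to repress its paralog Rpl22l1. Rpl22 (ENSMUSG00000028936, chr4:152325742-152334071) was at 91.7 to 151 CPM (median 124) in PVN and 139 to 217 CPM (median 175) in dCA1 vehicle libraries. Rpl22l1 (ENSMUSG00000039221, chr3:28805436-28807424) was at 40.4 to 79.3 CPM (median 55.0) in PVN, above the other medians of 42.6 to 49.0 CPM, and at 21.1 to 69.0 CPM (median 44.6) in dCA1. In PVN Rpl22 differed by -0.32 ± 0.06 in vehicle and -0.36 ± 0.05 in dexamethasone animals (edgeR adjusted p = 7.17e-06 and 1.22e-08). Rpl22l1 differed there by 0.29 ± 0.10 and 0.28 ± 0.10 (edgeR adjusted p = 0.0156 and 0.0217; higher in 13 of 14 and 10 of 15 animals).

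In dCA1 Rpl22 was higher by 0.32 ± 0.06 and 0.36 ± 0.05, in 15 of 15 and 12 of 13 animals. Rpl22l1 was at -0.07 ± 0.11 and -0.11 ± 0.11 in dCA1, which did not pass the edgeR test (adjusted p = 0.634 and 0.496). The log2 ratio of Rpl22l1 to Rpl22 within a vehicle library ran from -1.53 to -0.68 in PVN (median -1.08) and from -2.67 to -1.18 in dCA1 (median -2.05), with overlap of the ranges. In dexamethasone animals the medians were -1.02 and -2.20. The Rpl22 values in dCA1 and PVN were examined after their values were seen. With dexamethasone the log2 difference lay between -0.11 and 0.06 for Rpl22 and between -0.17 and 0.10 for Rpl22l1 over the 8 regions, and neither passed the edgeR test.

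Of the other paralogs, Rps27l, a p53-responsive relative of Rps27, was at a mean of 27.4 CPM over regions against 76.9 CPM for Rps27. Rps27 was higher in PFC in both arms (0.27 and 0.28; edgeR adjusted p = 0.0419 and 0.0165). PFC had the highest RIN and Rps27 rose with RIN within groups (0.10 log2 per unit). The PFC difference of Rps27 with RIN as a covariate is not reported here. In PFC Rps27l was at -0.07 and -0.15 and did not pass the edgeR test. Rpl7l1, which acts in ribosome assembly, passed in no region in either arm, at 25.1 CPM against 110 CPM for Rpl7. Rps19bp1, the member that is no ribosomal protein, was lower in CER in vehicle animals (-0.30) and higher in PFC in dexamethasone animals (0.34). In the other arm it had the same direction, at -0.21 in CER and 0.22 in PFC, and did not pass (edgeR adjusted p = 0.102 and 0.0849).

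Dorsal and ventral punches were compared in vehicle animals. Between dCA1 and vCA1, 4 members were higher in dCA1 and 0 lower by edgeR, where 22.1% of all genes were called (10.9% higher, 11.2% lower). They were Rplp0 (0.39 ± 0.10), Rpl7 (0.32 ± 0.08), Rpl6 (0.27 ± 0.08) and Rpl3 (0.26 ± 0.08). The dentate markers named above moved with this contrast, and their part in it was not tested. Between dDG and vDG edgeR called 0 members, where 15.3% of all genes were called (7.80% higher, 7.51% lower), and 10 members had an unadjusted p under 0.05. The count was 1 without the libraries the authors omitted, 1 without the dCA1 and CER libraries and 1 with RIN. The smallest edgeR adjusted p was 0.0697, for Rps19 at 0.22 ± 0.09.

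RNA integrity moved with many members. Within groups, 20 of 73 rose and 1 fell with RIN by edgeR, where 8.04% of 11053 genes were called (3.10% higher, 4.94% lower). The median slope was 0.03 log2 per RIN unit, against 0.000195 over all genes. The steepest were Rpl22l1 (0.11 ± 0.03), Rps27 (0.10 ± 0.03) and Rps3a1 (0.09 ± 0.03), and the one that fell was Rps15 (-0.06 ± 0.02). The libraries come from 30 animals, and with animal as a block 14 members passed, Rps15 (edgeR adjusted p = 0.183) and Rps3a1 (0.0632) not among them. By subunit 11 of 31 small and 9 of 39 large subunit genes rose, and none of the 3 stalk genes passed, at slopes of -0.02 to 0.0081. Beside them 21 of 75 nuclear genes of oxidative phosphorylation and 12 of 72 mitochondrial ribosomal protein genes rose with RIN. Among the genes that fell were 4 of 7 mitochondrially encoded genes, 5 of 7 oligodendrocyte markers and 6 of 8 astrocyte markers.

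**Figure D5:**
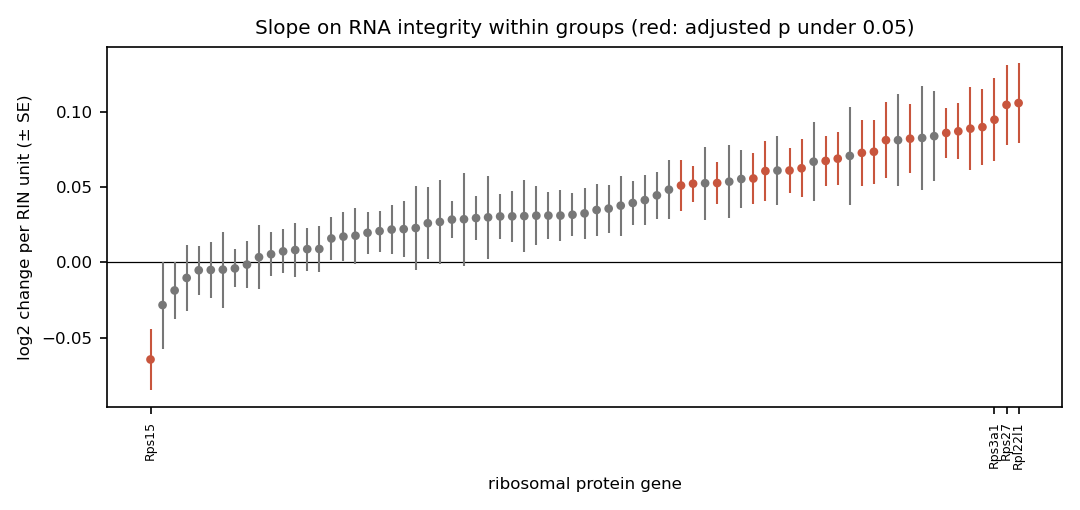
Slope of each of the 73 members on RIN within groups (vertical axis, log2 per RIN unit; lines are ± SE), ordered by slope along the horizontal axis, with the 4 genes named beside it labelled; red marks an adjusted p under 0.05. Most slopes are above 0, and the red genes are 20 with a positive slope and Rps15 with a negative one.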

How the data were processed

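The authors deposited a table of counts per gene for 235 libraries made from 3' tags with molecular identifiers. Per the submitters' processing notes, FastQC 0.11.4, cutadapt, UMI-tools 0.5.4, STAR 2.6.0a, featureCounts 1.6.4, DESeq2 1.30.1 and R 4.0.5 were used with mm10. How reads matching several places and strand were counted is not given in the sources used here. The deposited variance-stabilised log2 tables of the authors served only to see which libraries they list (228, omitting 7).

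Counts were scaled by TMM and tested with edgeR 4.0.16 (quasi-likelihood, R 4.3.3) after its filter by group. P-values were adjusted over all genes by Benjamini and Hochberg, with a threshold of 0.05. Dexamethasone was tested within each region, and its differences among regions in all 16 groups without an animal term. Regions were contrasted within each arm with animal as a block, and RIN slopes were fitted within groups. Only the dexamethasone fit was run on simulated counts, with AMY library totals, independent libraries and the same fixed spread for all genes. The regional, interaction and RIN fits were not. DESeq2 1.42.0, sva 3.50.0, other scalings, covariates and left-out libraries were alternatives. Levels of members and markers by library, group or region are CPM scaled by TMM factors over all libraries. The mean CPM used by the rule, and the shares of counts, rest on library totals. Fits within a region or an arm had TMM factors from their own libraries, so levels and those fitted differences are on separate scalings.

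Members, lists and the naming rule were chosen with earlier results of these data known. The rule named, per region, the 2 highest and 2 lowest members that passed in both arms, the 3 smallest p of the interaction, the 3 steepest RIN slopes each way, stalk genes, paralogs, reference genes, and for other lists the 2 genes with the smallest p each way. Some genes it takes are not reported here. Genes outside it were named after their values were seen, such as Rpl9 and those with an unadjusted p under 0.05, as were the regions given for stalk genes, Rps16 and Rpl22.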

Additional observations from a re-analysis of the deposited data

How the results depend on the processing

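Of the recomputed counts of members 183 stayed within 1.5 times the value reported and 13 did not. With dexamethasone 0 members passed by edgeR or DESeq2 in any region under each setting run, except 1 in PVN with surrogate variables. For regions against the others in vehicle animals, the PFC count became 11 with RIN as a covariate and the dCA1 count 8 with upper-quartile scaling. The dDG count became 15 (2 higher, 13 lower) without the dCA1 and CER libraries, 14 (1 higher, 13 lower) with date of punching and plate, and 4 with RIN. Between dDG and vDG 1 member passed without the libraries the authors omitted, 1 without dCA1 and CER, and 1 with RIN. In dexamethasone animals AMY had 26 without the omitted libraries, PFC 6 with RIN, and vCA1 0 without the omitted libraries and 2 with upper-quartile scaling. The cause was not tested. For regional contrasts, leaving out the omitted libraries or the dCA1 and CER libraries, and adding date and plate, were chosen after seeing the data. Of single genes 510 values kept direction and side of the threshold, 21 no longer passed and 1 newly passed (Rpl5 in dCA1 of dexamethasone animals without the animal block). Among the lost calls were Rps28 and Rps29 in vCA1 of both arms (without dCA1 and CER, with upper-quartile scaling, and more), Rplp2 in PVN (upper-quartile scaling, RIN), Rps16 in PVN (RIN) and Rplp1 in PFC of dexamethasone animals (RIN). Rps16 in PFC of dexamethasone animals turned from 0.07 to -0.019 with RIN, neither past the threshold. With animal as a block 14 members moved with RIN, and Rps15 and Rps3a1 did not pass (edgeR adjusted p = 0.183 and 0.0632).

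Replicate numbers recur in both arms, but the correlation of same-numbered libraries was not over 0.1 in every pair of any region (lowest per region -0.16 to 0.03), and same-numbered libraries shared punching date and plate in 13 or 14 pairs of each region, of 13 to 15. The median correlation per region was 0.05 to 0.21. With the replicate number as a block 0 members passed for dexamethasone in each region. Without the animal block, regional counts stayed within 1.5 times. Groups of 13 to 15 libraries left 4 of 584 intervals reaching a 1.5-fold change.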

Other observations

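The 13 matching genes below 20 CPM included 6 that were tested in some region, among them Rpl36al, Rpl18 and Rpl10 in 8, Rpl28 in 7 and Rpl29 in 6. None of the 6 passed for dexamethasone by edgeR at an adjusted p of 0.05, and none had an unadjusted p under 0.05. Rps27rt, Rps6, Rpl10a, Rpl3l, Rpl39l, Rpl6l and Rpl10l were too low to be tested, Rpl10l having no counts. Rps6 and Rpl10a, which every ribosome contains, were counted at 7.37 and 3.31 CPM.

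Some ribosome components do not match the symbol rule. Rack1, a scaffold on the small subunit, was at 213.9 CPM, Fau, which encodes Rps30 fused to a ubiquitin-like protein, at 57.0 CPM and Rpsa, also a laminin receptor, at 52.8 CPM. Their log2 differences with dexamethasone lay between -0.18 and 0.11 over the 8 regions and none passed the edgeR test. The 16 pseudogene entries of the family took 0.0051% of all counts, 4 of them at over 1 CPM. The highest was Rpl10-ps3 at 33.5 CPM, above the threshold of the rule, while Rpl10 itself was at 17.8 CPM and below it. The next highest entry was Rpl27-ps3 at 7.98 CPM. Whether tags of Rpl10 were counted under Rpl10-ps3 was not tested, so the exclusion of Rpl10 by the rule is uncertain.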
